A study of Rattus norvegicus with 9 samples.

Results

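The 58 genes described here build the lysosome's degradative core in the rat medial prefrontal cortex (mPFC), and they were chosen by symbol from the 34463 genes of the deposited table. They are 22 hydrolases, 4 activators and soluble cofactors, 9 lysosomal membrane proteins and all 23 protein-coding genes whose symbol starts with Atp6v, the family of the vacuolar proton pump. RNA was sequenced from mPFC tissue of SD (Sprague-Dawley) rats, male per the study's methods, in 3 groups of 3 libraries each. The Veh group received vehicle and no stress. The Veh + CMS group received vehicle and chronic mild stress (CMS), a schedule of varied mild stressors that is used as a rodent model of depression. The PHL + CMS group received phloretin (PHL), a dihydrochalcone found in apple, before and during the same stress. In the study's in vivo work PHL was given for 2 weeks ahead of the stress and then through its 3 weeks. CMS was thus common to the last 2 groups, and no group analysed here had PHL alone. Levels are FPKM, fragments scaled to gene length and by a factor for each library. Members are compared by log2 fold changes of FPKM + 0.1, which understate the change of genes with low values.

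Lysosomes are acidic organelles in which cells break down proteins, glycans and lipids. Most of their hydrolases work best at low pH, which is kept by the vacuolar proton pump (V-ATPase), a rotary machine whose membrane-bound V0 sector passes protons and whose cytosolic V1 sector burns ATP. In neurons the same pump also acidifies synaptic vesicles, and the proton gradient loads them with transmitter, so in brain tissue its transcripts report on more than lysosomes. TFEB, a transcription factor of the MiT family, is known from human cells to bind a CACGTG core, usually written TCACGTG, in the promoters of many lysosomal genes.

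RefSeq promoters (GRCr8, 250 bases before to 50 after the start of each gene) were at hand for 44 of the 58 members. These promoters are shown because many lysosomal genes are known TFEB targets, and a reader can see which windows carry the core and which do not. TCACGTG, searched on both strands, stood in 7 of the 44 windows (15.9%), against 3.20% of all 33469 windows and 3.68% of the 21851 windows of protein-coding genes. The shorter core CACGTG, which is its own reverse complement, is contained in every TCACGTG and was counted once per place, stood in 9 of the 44 (20.5%), against 6.42% of all windows and 7.02% of the protein-coding ones. By class, TCACGTG stood in 3 of 8 membrane protein windows, 2 of 16 hydrolase windows, none of the 3 cofactor windows and 2 of 17 pump windows. The Lamp1 window held 5 copies of CACGTG, the most of any member. Its 250 bases before the start are printed first, followed by the stretch of up to 30 bases on each side of the first core in 5 other members and by the same 250 bases of Atp6v0c, the most abundant pump gene, which held none. Each is written 5′ to 3′ along the gene's strand, with every CACGTG in capitals.
Lamp1 (chr16:83075064-83075313, minus strand): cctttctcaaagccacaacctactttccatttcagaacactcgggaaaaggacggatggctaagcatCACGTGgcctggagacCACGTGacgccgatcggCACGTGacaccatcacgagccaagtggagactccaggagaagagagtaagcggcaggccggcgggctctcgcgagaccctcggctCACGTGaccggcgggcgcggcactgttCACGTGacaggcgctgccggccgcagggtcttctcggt
Mcoln1 (chr12:6358206-6358271, plus strand): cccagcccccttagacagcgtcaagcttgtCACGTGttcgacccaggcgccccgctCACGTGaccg
Cln3 (chr1:190597960-190598025, minus strand): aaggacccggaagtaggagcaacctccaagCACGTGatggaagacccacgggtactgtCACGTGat
Ctsd (chr1:206968943-206969008, minus strand): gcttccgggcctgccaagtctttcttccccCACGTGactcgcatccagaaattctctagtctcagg
Glb1 (chr8:122963588-122963653, plus strand): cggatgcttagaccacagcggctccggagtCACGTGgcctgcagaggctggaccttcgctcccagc
Atp6v0d1 (chr19:50357265-50357330, minus strand): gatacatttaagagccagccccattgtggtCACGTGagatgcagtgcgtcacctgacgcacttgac
Atp6v0c (chr10:13705843-13706092, minus strand): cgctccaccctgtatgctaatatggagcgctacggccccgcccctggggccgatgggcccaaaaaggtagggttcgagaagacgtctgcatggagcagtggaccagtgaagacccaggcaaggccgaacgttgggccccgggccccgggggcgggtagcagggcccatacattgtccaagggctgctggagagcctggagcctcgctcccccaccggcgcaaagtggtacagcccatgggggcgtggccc

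The remaining carriers of the core were Atp6v0e1, with TCACGTG, and Ctsf and Cd63, with CACGTG alone. Of the 10 members that are reported below with an adjusted p under 0.05, Lamp1 was the only one whose window held the core, and the windows of Npc1, Lamp2, Tpp1, Aga, Neu1, Atp6v0c, Atp6v0b, Atp6v1e1 and Atp6v1f held none. A match is a description of these letters and not a binding site, and a window without one says nothing of sites elsewhere.

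The libraries held 13913639 to 16960004 reads on genes, recovered from the FPKM, and the members took 0.973 to 1.17% of them. The fit covered 16159 genes whose FPKM averaged 0.5 or more, and 54 of the 58 members were among them: all 35 of the hydrolases, cofactors and membrane proteins, and 19 of the 23 pump genes. The other 4 are pump isoforms known from kidney, bone or testis, of which Atp6v1e2, Atp6v1b1 and Atp6v1g3 reached at most 0.251 FPKM in any library and Atp6v0d2 was listed at 0 in all 9. An exact 0 in this table may be a gap in the counting, since Lamtor4, a widely expressed gene, was also listed at 0 in every library, as were the markers Siglech and Cldn5. Markers of excitatory neurons were present in every library (summed FPKM of 9 genes 1204 to 1622, Slc17a7 389 to 631 FPKM). Several libraries stood apart. Summed FPKM of 15 oligodendrocyte markers were 2640 to 3299 in the Veh libraries, 9050 to 12087 in the Veh + CMS libraries, and 3740, 7725 and 3556 in PHL + CMS replicates 1, 2 and 3. Veh + CMS replicate 2 had 13.9% of its reads on mitochondrial genes against 6.96 to 10.6% elsewhere. Markers of striatum, a neighbouring region, summed to 188 and 213 FPKM in Veh replicates 1 and 2, 551 in Veh replicate 3, 760, 480 and 311 in the Veh + CMS libraries and 205 to 221 in the PHL + CMS libraries. The values of 3 libraries are given below in the order of replicates 1, 2 and 3, a number that only names the library. Separate animals are not named in the labels, so the p-values rest on a spread between libraries that may in part be technical, and in bulk tissue fewer cells of a type and less RNA per cell cannot be told apart.

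In the Veh libraries the pump was by far the most abundant class. Its 23 genes summed to 3658 to 3925 FPKM, the 22 hydrolases to 1055 to 1096, the 4 cofactors to 767 to 779 and the 9 membrane proteins to 507 to 563. Atp6v0c, which encodes the proteolipid of the proton-carrying ring, led the pump with 1025 ± 59.5 FPKM (SD, n = 3), followed by Atp6v1b2, the ATP-binding B subunit of the brain, with 362 ± 32.1 FPKM (SD, n = 3). Their ranges in the Veh libraries did not overlap. Ctsb, a cysteine protease, was the most abundant hydrolase with 227 ± 6.72 FPKM (SD, n = 3). Psap, whose product is cut into the saposins that present lipids to hydrolases, reached 656 ± 3.17 FPKM (SD, n = 3), above every hydrolase. The lowest hydrolase was Naglu, which trims heparan sulfate, with 3.86 ± 0.203 FPKM (SD, n = 3).

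**Figure D1:**
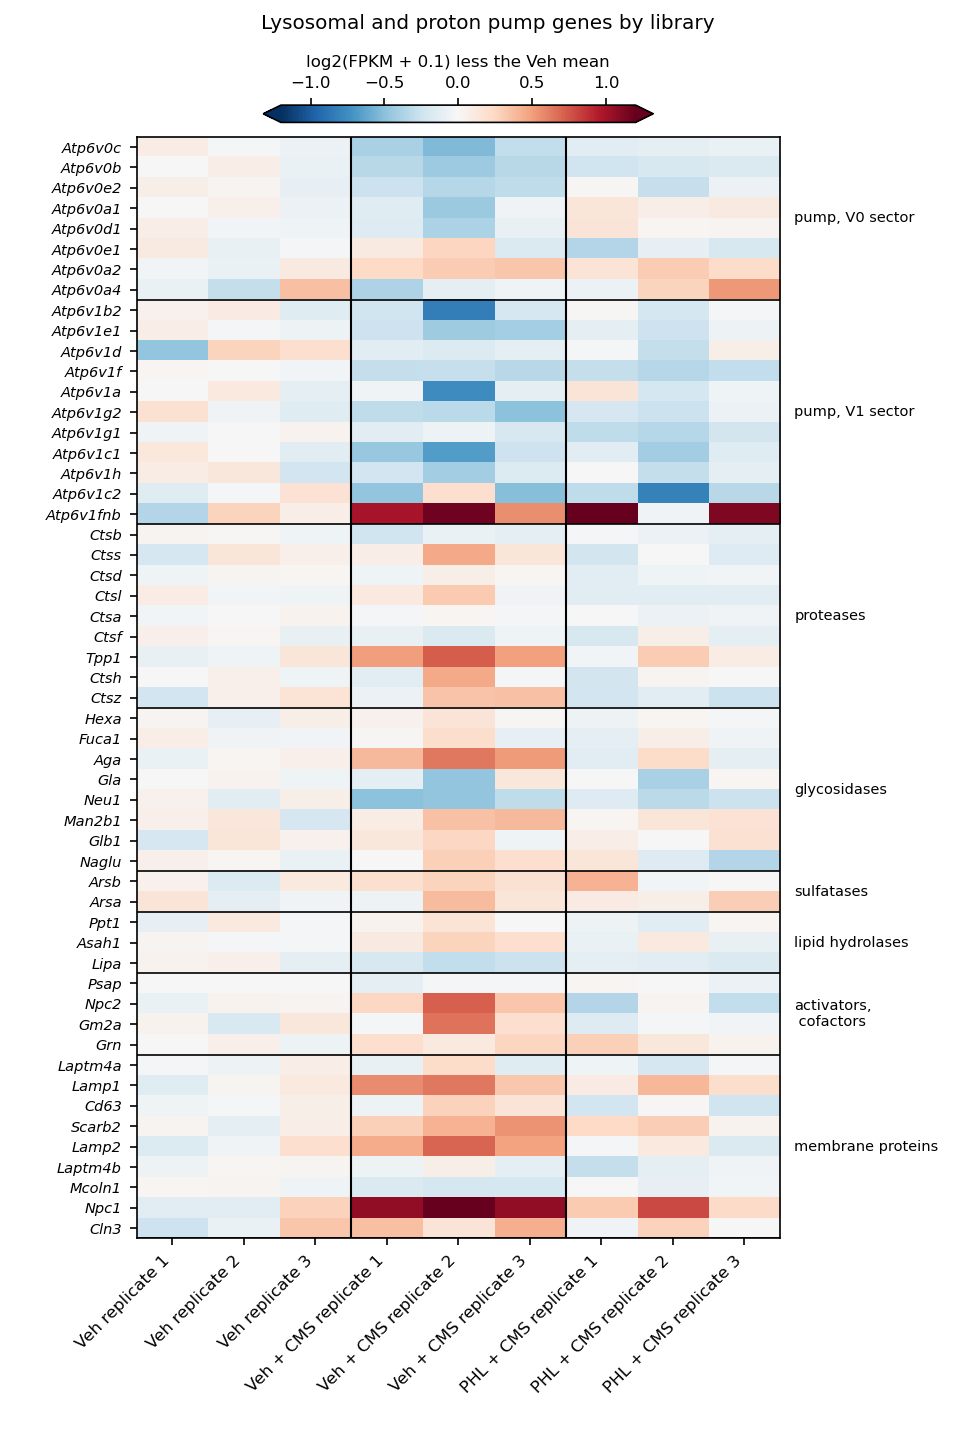
Each row is 1 of the 54 tested members and each column 1 library, and colour gives log2(FPKM + 0.1) less the mean of the 3 Veh libraries, with values beyond 1.2 in either direction drawn in the end colours. Rows are grouped by class and ordered by mean FPKM, and most abundant pump rows are blue and most membrane protein rows red in the Veh + CMS columns.

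The first comparison, Veh + CMS against Veh, asks what differed in the lysosomal and pump genes after CMS exposure. In the Veh + CMS group 3 of 9 membrane proteins and 2 of 22 hydrolases were higher, against 2.65% of all genes tested, and 1 hydrolase and 4 of 19 pump genes were lower, against 1.14%, with no test of a difference between the classes. With limma and an adjusted p under 0.05, 10 of the 54 tested members differed (3.79% of all genes tested did). Of these 5 were higher (9.26% of the members, against 2.65% of all genes), namely Npc1, Tpp1, Lamp2, Aga and Lamp1, and 5 were lower (9.26%, against 1.14%), namely Neu1, Atp6v0c, Atp6v0b, Atp6v1e1 and Atp6v1f. At an unadjusted p under 0.05, 11 members were higher (20.4%, against 10.9% of all genes) and 13 lower (24.1%, against 11.3%). The 3 libraries of each group did not overlap for 12 higher members (22.2%, against 14.1%) and 15 lower ones (27.8%, against 13.5%). The members were chosen with earlier results of these data known, so shares above those of all genes are no independent support. The adjusted calls depended on single libraries: none of the 10 was left without Veh replicate 1 or 2 or without any one of the 3 Veh + CMS libraries, fits in which at most 1 gene of the whole table passed. Without Veh replicate 3, 4 members were called (493 genes of the whole table). Without PHL + CMS replicates 1 or 3, 2 members each were called (243 and 399 genes), and without PHL + CMS replicate 2, 11 members (798 genes). Across these fits 19 to 23 members had an unadjusted p under 0.05, and the share of all genes at that threshold was not taken. With all 9 libraries the count was 0 with moderation without trend, 0 with the replicate number as a block, 3 with no filter on low genes, 3 with only the 2 groups compared and 6 with quantile normalization. In the same order 2, 0, 301, 462 and 448 genes of the whole table passed, against 613 in the fit reported here.

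Npc1 showed the largest difference. It encodes the membrane protein that exports cholesterol from the lysosome, and lies on chromosome 18, 3616878 to 3662683 (Rnor_6.0, the build of the files). Its levels were 7.36, 7.35 and 9.80 FPKM in Veh, 17.1, 18.96 and 17.00 in Veh + CMS and 10.1, 14.1 and 9.48 in PHL + CMS. All Veh + CMS libraries lay above all others, with a mean 2.16-fold that of Veh (log2 difference 1.12 ± 0.17 (SE), adjusted p = 0.0263, limma). The annotation places 406 bases of Npc1 under Rmc1, a gene on the opposite strand, and no source used here says that reads were counted by strand, so those of the overlap cannot be told apart, though Rmc1 itself differed by 0.05 on the log2 scale.

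Lamp1 and Lamp2 encode the heavily glycosylated proteins that line the lysosomal membrane, Lamp2 being also the receptor of chaperone-mediated autophagy. Lamp1 (chromosome 16, 81689335 to 81714419) was 86.1, 97.8 and 103 FPKM in Veh, 142, 148 and 119 in Veh + CMS and 102, 126 and 111 in PHL + CMS. Lamp2 (chromosome X, 124722628 to 124766044) was 45.9, 50.03 and 59.1 FPKM in Veh, 69.9, 83.6 and 71.9 in Veh + CMS and 50.7, 55.7 and 45.5 in PHL + CMS. Both were higher in every Veh + CMS library than in every Veh library, by 0.51 ± 0.11 (SE) for Lamp1 (adjusted p = 0.0458) and 0.54 ± 0.12 (SE) for Lamp2 (adjusted p = 0.0425) on the log2 scale in limma's test. The study shows both among genes it picked on these samples, so neither is independent evidence of a direction. Scarb2, whose product LIMP-2 carries glucocerebrosidase to the lysosome, read 58.4, 52.9 and 60.5 FPKM in Veh, 69.5, 76.6 and 83.4 in Veh + CMS and 67.5, 70.01 and 58.97 in PHL + CMS. Its Veh and Veh + CMS libraries did not overlap, with a log2 difference of 0.41 ± 0.10 (SE) that fell just short of the threshold (adjusted p = 0.0507, limma). Of the 9 membrane proteins 6 had a log2 difference above 0, and the median was 0.32 (all genes tested: -0.02). Mcoln1, a calcium channel of the lysosome, lay on the other side at -0.20 ± 0.06 (SE) (unadjusted p = 0.0135 in limma).

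Among the hydrolases the differences were smaller, with 16 of 22 above 0 and a median of 0.11. Tpp1, a serine protease that trims tripeptides from proteins and is lost in CLN2 disease, lies on chromosome 1, 170588035 to 170594168. It was 23.6, 24.2 and 27.7 FPKM in Veh, 35.5, 41.7 and 35.3 in Veh + CMS and 24.6, 31.1 and 26.7 in PHL + CMS. Aga, which frees asparagine from glycoprotein sugars (chromosome 16, 41222238 to 41234095), was 14.1, 15.1 and 15.5 FPKM in Veh, 19.5, 23.1 and 21.2 in Veh + CMS and 13.5, 17.4 and 13.9 in PHL + CMS. Neither gene's Veh + CMS libraries overlapped the Veh libraries, and the log2 differences were 0.57 ± 0.11 (SE) for Tpp1 (adjusted p = 0.0345) and 0.51 ± 0.11 (SE) for Aga (adjusted p = 0.0444) by limma. Neu1, the lysosomal sialidase, went the other way. On chromosome 20, 4610995 to 4615247, it read 11.9, 10.5 and 11.99 FPKM in Veh, 8.09, 8.21 and 9.23 in Veh + CMS and 10.2, 9.14 and 9.56 in PHL + CMS, with each Veh + CMS library below each Veh library (log2 difference -0.42 ± 0.10 (SE), adjusted p = 0.0469, limma). Lipa, the acid lipase that frees cholesterol from its esters, was 16.6, 16.8 and 14.9 FPKM in Veh, 14.1, 13.04 and 13.4 in Veh + CMS and 14.7, 14.7 and 14.2 in PHL + CMS. Its Veh + CMS libraries also lay below the Veh libraries (-0.25 ± 0.08 (SE)), without passing the adjusted threshold (adjusted p = 0.108, limma). The abundant cathepsins did not pass the test, with log2 differences of 0.01 ± 0.06 (SE) for Ctsd, the main aspartic protease, -0.14 ± 0.07 (SE) for Ctsb, and -0.01 ± 0.06 (SE) for Ctsa, a carboxypeptidase that also shields Neu1 and Glb1. For Ctsb all Veh + CMS libraries nonetheless lay below all Veh libraries, at 193, 215 and 210 against 232, 230 and 219 FPKM (unadjusted p = 0.0685, limma). Of the 8 genes listed with the glycosidases, Aga, which is not a glycosidase in the strict sense, was at 0.51. The others ranged from -0.42 (Neu1) to 0.27 (Man2b1), and the sulfatases Arsa and Arsb were at 0.16 and 0.21. Of the cofactors, Npc2, the soluble carrier that hands cholesterol to Npc1, was 62.2, 67.3 and 67.2 FPKM in Veh, 78.1, 108 and 82.6 in Veh + CMS and 51.2, 67.1 and 53.3 in PHL + CMS. Npc2 did not overlap between Veh and Veh + CMS and had a log2 difference of 0.43 ± 0.14 (SE) (adjusted p = 0.111, limma). Psap was at -0.05 ± 0.07 (SE), with its Veh + CMS libraries narrowly below its Veh libraries.

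**Figure D2:**
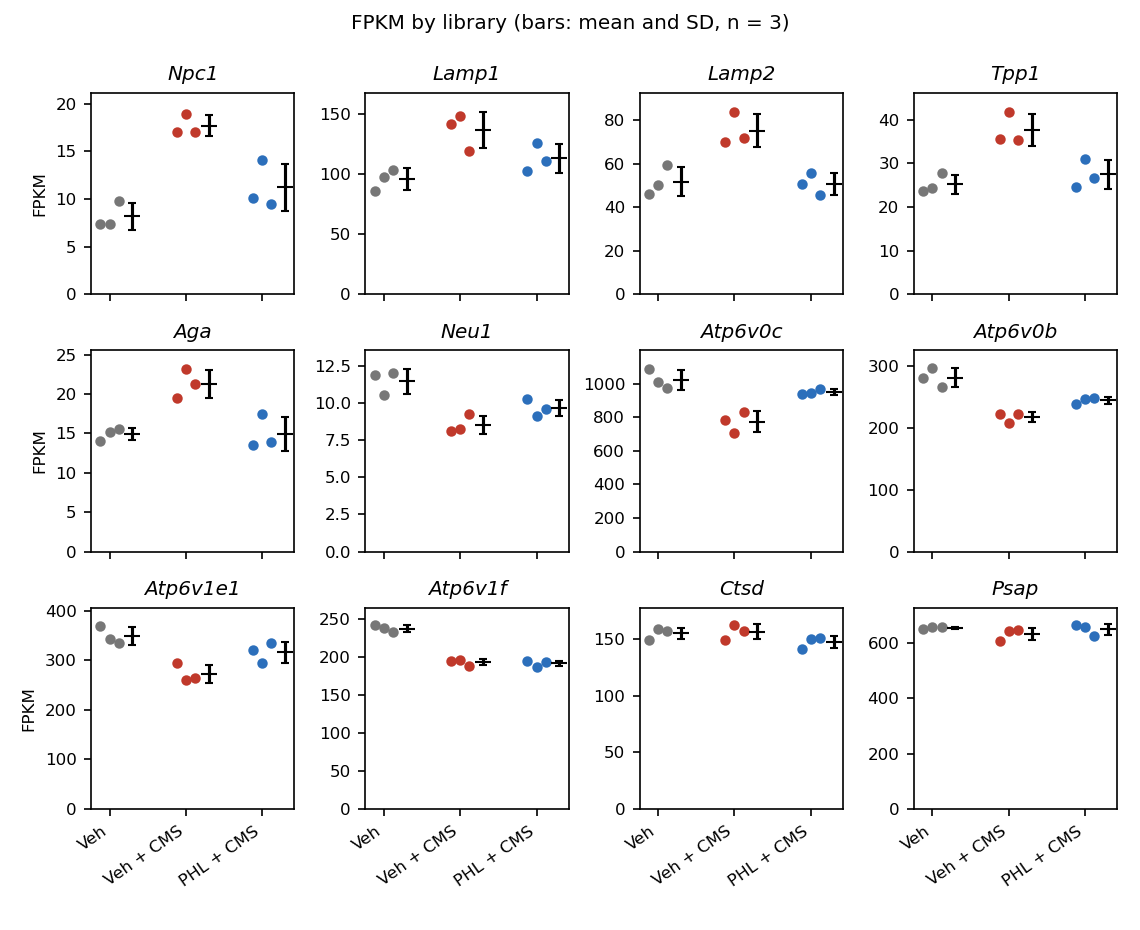
FPKM of 12 members by library, with axes that start at 0, where points are libraries and bars the mean and SD of 3. For Npc1, Lamp1, Lamp2, Tpp1 and Aga the Veh + CMS points lie above the Veh points, for Neu1, the 4 pump subunits and narrowly Psap below, while those of Ctsd overlap the Veh points.

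The pump genes lay mostly below 0. Of the 19 tested genes 16 had a log2 difference below 0, with a median of -0.27, and 4 were called lower (21.1%, against 1.14% of all genes) and none higher. At an unadjusted p under 0.05, 10 were lower (52.6%, against 11.3%) and 1 higher (5.26%, against 10.9%). All 14 genes that averaged 50 FPKM or more were below 0 (median -0.30), and of the 5 under that level Atp6v0e1, Atp6v0a2 and Atp6v1fnb were above 0 and Atp6v0a4 and Atp6v1c2 below.

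In the V0 sector, Atp6v0c (chromosome 10, 13537033 to 13542077) stood at 1091, 1009 and 975 FPKM in Veh, 784, 708 and 833 in Veh + CMS and 936, 945 and 971 in PHL + CMS. The Veh + CMS libraries were all below the rest, at 0.756-fold of the Veh mean (log2 difference -0.41 ± 0.09 (SE), adjusted p = 0.0422, limma). Atp6v0b, the other proteolipid of the ring (chromosome 5, 136718352 to 136721379), was 279.9, 296 and 266 FPKM in Veh, 222, 208 and 223 in Veh + CMS and 238, 246 and 248 in PHL + CMS. The same order of groups held for it, with a log2 difference of -0.37 ± 0.07 (SE) between Veh + CMS and Veh (adjusted p = 0.0317, limma). Atp6v0e2, a small membrane subunit enriched in brain, was at -0.30 ± 0.09 (SE) (adjusted p = 0.0901 in limma). Atp6v0a1 and Atp6v0d1, the a subunit of synaptic vesicles and the stalk subunit that joins V0 to V1, were each at -0.21.

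In the V1 sector, Atp6v1e1, part of the outer stalks (chromosome 4, 153351421 to 153373649), was 369.6, 343 and 335 FPKM in Veh, 294, 259.7 and 263 in Veh + CMS and 321, 294 and 335 in PHL + CMS. Atp6v1f, part of the central rotor (chromosome 4, 56744561 to 56747656), was 241, 238 and 232 FPKM in Veh, 194, 196 and 188 in Veh + CMS and 194, 187 and 193 in PHL + CMS. For both, every Veh + CMS library was below every Veh library, and the log2 differences were -0.36 ± 0.08 (SE) (adjusted p = 0.048) and -0.30 ± 0.06 (SE) (adjusted p = 0.0345) in limma's test. Atp6v1c1, which helps V1 hold on to V0, was 185, 171 and 155 FPKM in Veh, 124, 106 and 143 in Veh + CMS and 155, 127 and 154 in PHL + CMS. Atp6v1g2, a stalk isoform of neurons, was 216, 186 and 173 FPKM in Veh, 154, 153 and 136 in Veh + CMS and 166, 159.9 and 182 in PHL + CMS. Neither overlapped between Veh and Veh + CMS, but their log2 differences of -0.46 ± 0.13 (SE) and -0.37 ± 0.10 (SE) missed the adjusted threshold (adjusted p = 0.0769 and 0.0693, limma). Atp6v1g2 overlaps 3 RT1-CE genes over its whole length in the annotation and Nfkbil1 on the opposite strand over 560 bases, all of them at or below 8.42 FPKM on average.

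Single libraries set some of these values. Atp6v1b2 was 306, 203 and 313 FPKM in the Veh + CMS libraries, and Atp6v1a, the catalytic A subunit, was 179, 109 and 170.3, so replicate 2 was well below its partners in both. Atp6v1d, another rotor subunit, was 163, 273 and 259.9 in the Veh libraries, where replicate 1 was the low one. Without Veh + CMS replicate 2 the median log2 difference was -0.21 for the pump genes and 0.04 for the hydrolases, in place of -0.27 and 0.11.

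**Figure D3:**
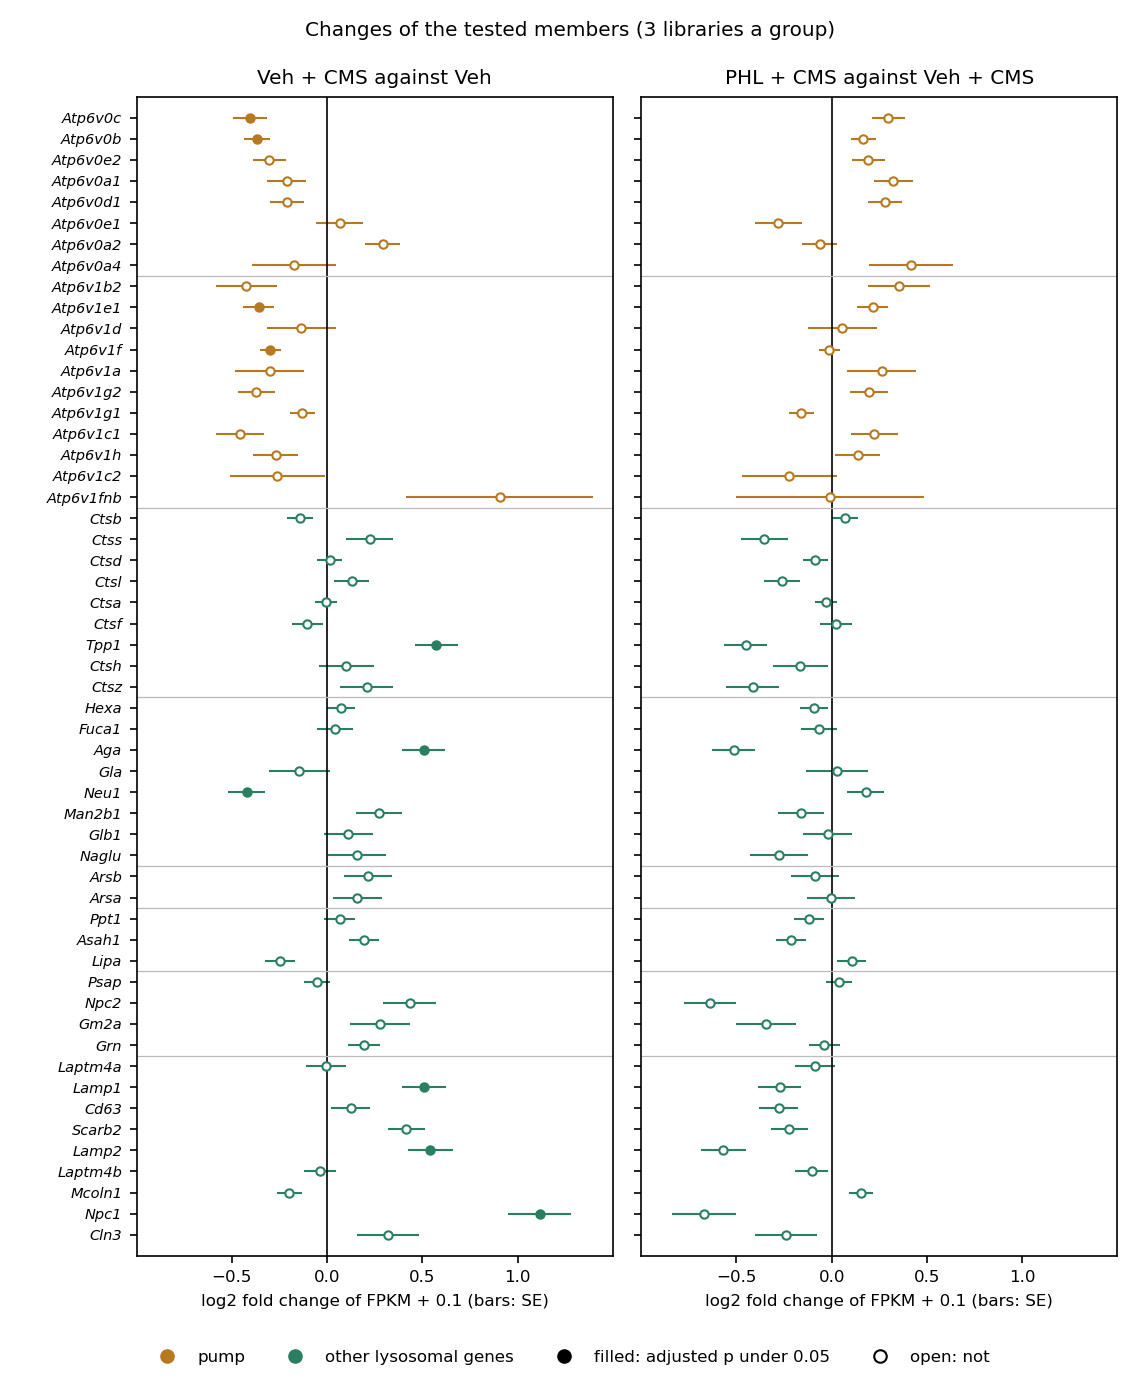
Log2 fold changes of FPKM + 0.1 with their standard errors for the 54 tested members, pump genes in brown and all others in green, for Veh + CMS against Veh on the left and PHL + CMS against Veh + CMS on the right. Filled points have an adjusted p under 0.05, which 10 members reached on the left and none on the right, and both panels share the Veh + CMS libraries.

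To set the pump against the hydrolases within each library, the mean log2(FPKM + 0.1) over the 22 hydrolases was taken from that over the 19 tested pump genes, each gene relative to its Veh mean. The difference was 0.00, 0.02 and -0.01 in the Veh libraries, -0.16, -0.40 and -0.25 in the Veh + CMS libraries, and 0.06, -0.16 and 0.06 in the PHL + CMS libraries. Every Veh + CMS library lay below every Veh library, while PHL + CMS replicate 2 lay beside Veh + CMS replicate 1 and the other PHL + CMS libraries above 0. Over the 14 pump genes that averaged 50 FPKM or more, the difference was 0.03, 0.04 and -0.07 in Veh and -0.25, -0.61 and -0.32 in Veh + CMS. With these genes it was -0.02, -0.20 and -0.03 in PHL + CMS, so no PHL + CMS library lay above 0. Over all 19 pump genes, group means were 0.00 for Veh, -0.27 ± 0.12 for Veh + CMS and -0.01 ± 0.13 for PHL + CMS (SD, n = 3). The pump mean of Veh + CMS carried more of its -0.27 than the hydrolase mean, at -0.18 and 0.09. Atp6v1fnb, which is not known as a pump subunit, is 1 of the 19, and leaving it out was a choice made after seeing the data. The difference from Veh was then -0.33 for Veh + CMS and -0.06 for PHL + CMS. The summed FPKM of the pump had the same order, at 3168, 2803 and 3189 in the Veh + CMS libraries and 3595, 3322 and 3622 in the PHL + CMS libraries, with no overlap between the 3 groups. Those of the membrane proteins were 598, 687 and 596 and then 523, 556 and 524, and the hydrolases overlapped between Veh and Veh + CMS with 1061, 1199 and 1098 in the latter. Both sectors of the pump shared the order of the group means, V0 summing to 1732 to 1906 FPKM in Veh, 1321 to 1512 in Veh + CMS and 1672 to 1736 in PHL + CMS, and V1 to 1927 to 2092, 1482 to 1710 and 1651 to 1886.

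**Figure D4:**
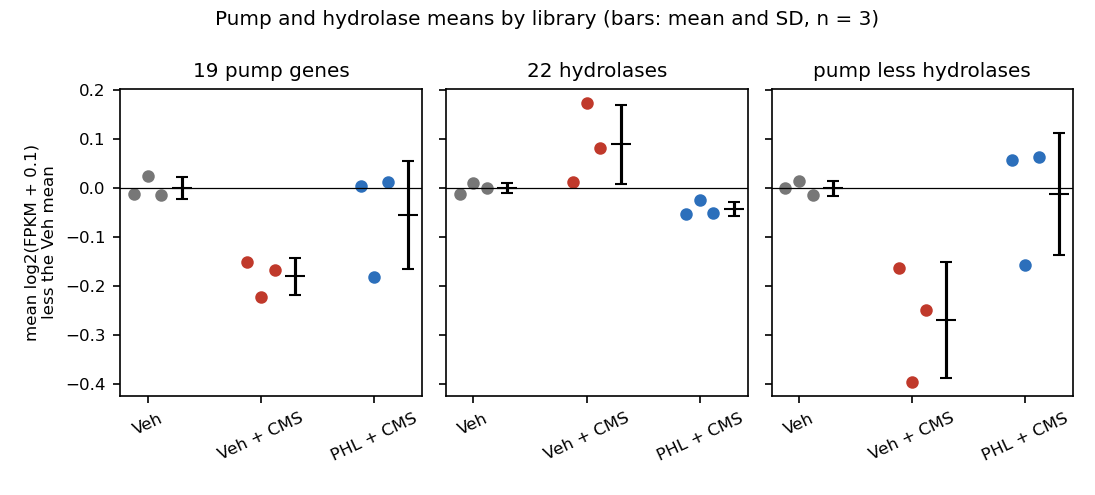
Mean log2(FPKM + 0.1), less the Veh mean, over 19 pump genes, over 22 hydrolases, and the first less the second, where each point is a library and bars give the mean and SD of 3. In the right panel the Veh + CMS libraries lie between -0.40 and -0.16, and the PHL + CMS libraries at 0.06, -0.16 and 0.06.

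Cell type markers are set beside these results, and the oligodendrocyte list stood out most clearly. All 15 oligodendrocyte markers were called higher in Veh + CMS than in Veh, with a median log2 difference of 1.66. All 9 markers of excitatory neurons were below 0 (median -0.38, none called), summing to 1386 to 1622 FPKM in Veh, 1204 to 1438 in Veh + CMS and 1453 to 1618 in PHL + CMS. All 14 tested microglial markers were above 0 (median 0.14, none called), with sums of 285 to 340, 325 to 404 and 269 to 307, Siglech being listed at 0. Astrocyte markers (6 of 10 above 0, 1 called higher) summed to 1968 to 2239, 2032 to 3000 and 1897 to 2175 FPKM, and those of endothelium (6 of 6 tested above 0, none called) to 86.5 to 106, 92.8 to 135 and 92.9 to 127, with Cldn5 listed at 0. Markers of meninges and fibroblasts (2 of 7 above 0, median -0.57, none called) summed to 35.4 to 59.0, 35.5 to 58.2 and 36.5 to 67.1, and all 10 striatal markers were above 0 (median 0.89, none called). The part of these cell types in the differences of the lysosomal and pump genes was not tested.

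The second comparison, PHL + CMS against Veh + CMS, asks what differed with PHL under the same stress. The members leaned the other way from the first comparison, but the 2 comparisons share the Veh + CMS libraries, so their signs are not independent, and no member passed the adjusted threshold. By limma 0 of 54 members were called (0% of all genes tested), voom on the recovered reads called 0 as well, and 20 members had an unadjusted p under 0.05. Of these 6 were higher (11.1% of the members, against 7.51% of all genes) and 14 lower (25.9%, against 8.22%). Groups did not overlap for 7 higher members (13.0%, against 10.5%) and 10 lower ones (18.5%, against 10.7%). Among the 35 hydrolases, cofactors and membrane proteins 28 were below 0 (median -0.12, all genes tested 0.01). At an unadjusted p under 0.05, 12 of the 35 were lower (34.3%, against 8.22%) and 1 higher (2.86%, against 7.51%). Among the 19 pump genes 13 were above 0 (median 0.19). At the same threshold 5 of the 19 were higher (26.3%, against 7.51%) and 2 lower (10.5%, against 8.22%).

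On the lysosomal side the smallest p was that of Lamp2, at 50.7, 55.7 and 45.5 FPKM in the PHL + CMS libraries, all below the Veh + CMS libraries and overlapping the Veh libraries (-0.57 ± 0.12 (SE) on the log2 scale, unadjusted p = 0.000919, adjusted p = 0.149, limma). Npc2 (-0.64 ± 0.14 (SE)), Aga (-0.51 ± 0.11 (SE)), Npc1 (-0.67 ± 0.17 (SE)) and Tpp1 (-0.45 ± 0.11 (SE)) followed, each with every PHL + CMS library below every Veh + CMS library and an adjusted p of 0.149 to 0.160. Lamp1 was at -0.27 ± 0.11 (SE), with overlapping groups. Of the cysteine proteases, Ctss, which microglia express strongly, was 129.6, 164 and 155 FPKM in Veh, 157, 204 and 164 in Veh + CMS and 127, 148 and 134 in PHL + CMS. Ctsz, another one of myeloid cells, was 12.9, 15.8 and 17.04 FPKM in Veh, 14.5, 19.2 and 19.4 in Veh + CMS and 12.9, 13.7 and 12.7 in PHL + CMS, and Ctsl was 79.4, 72.8 and 71.9 FPKM in Veh, 80.99, 92.8 and 72.3 in Veh + CMS and 68.1, 67.9 and 68.1 in PHL + CMS. The PHL + CMS libraries of all 3 lay below the Veh + CMS libraries, with log2 differences of -0.35 ± 0.12 (SE), -0.41 ± 0.14 (SE) and -0.26 ± 0.09 (SE) and adjusted p-values of 0.221, 0.212 and 0.227 in limma. Between Veh + CMS and Veh the same 3 genes overlapped.

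On the pump side, Atp6v0c was at 0.30 ± 0.09 (SE) (unadjusted p = 0.00746, adjusted p = 0.179, limma), with PHL + CMS libraries between those of Veh + CMS and Veh. Atp6v0a1 was 123, 128 and 117 FPKM in Veh, 111, 89.8 and 119 in Veh + CMS and 136, 129 and 133 in PHL + CMS. Atp6v0d1 was 128, 118 and 117 FPKM in Veh, 108, 92.4 and 113 in Veh + CMS and 135, 122 and 123 in PHL + CMS. In both the PHL + CMS libraries lay above those of Veh + CMS, by 0.32 ± 0.10 (SE) and 0.28 ± 0.09 (SE) on the log2 scale (adjusted p = 0.189 and 0.197, limma). Atp6v0b was at 0.17 ± 0.07 (SE) and Atp6v1e1 at 0.22 ± 0.08 (SE) (adjusted p = 0.284 and 0.26, limma). Atp6v1f was level with Veh + CMS, at -0.01 ± 0.06 (SE). Atp6v1g1, the stalk isoform found in most tissues, was lower still, at 177, 183 and 189 FPKM in Veh, 166, 175 and 160.4 in Veh + CMS and 148, 144 and 157 in PHL + CMS (-0.16 ± 0.07 (SE) against Veh + CMS, adjusted p = 0.293, limma).

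These values depended on single libraries. Without PHL + CMS replicate 2, 3 members were called lower than in Veh + CMS, Npc2 (-0.76), Aga (-0.63) and Npc1 (-0.84), and 285 genes of the table passed. The number of members at an unadjusted p under 0.05, 20 with all libraries, was 8 without Veh + CMS replicate 2, 12 without PHL + CMS replicate 3 and 14 without PHL + CMS replicate 1, and the pump median of 0.19 was then 0.13, 0.15 and 0.17. The share of all genes at that threshold was not taken in these fits, so the 3 counts have no background beside them. In this comparison all 15 oligodendrocyte markers were below 0 (median -1.07, none called), 13 of 14 microglial markers were below 0 (median -0.36, none called), 8 of 9 markers of excitatory neurons were above 0 (median 0.41, none called) and all 10 striatal markers were below 0 (median -1.15, none called). Astrocyte markers were below 0 in 8 of 10 (median -0.12) and endothelial ones in 4 of 6 (median -0.21). Markers of meninges and fibroblasts were above 0 in 5 of 7 (median 0.66), and none of these 3 lists had a called gene. Their part in the differences of the members was not tested.

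The third comparison, PHL + CMS against Veh, asks how far the stressed and treated rats were from the unstressed ones. By limma 0 of 54 members were called (0% of all genes tested), as by voom on the recovered reads. At an unadjusted p under 0.05, 2 members were higher (3.70%, against 4.99% of all genes) and 4 lower (7.41%, against 5.78%), shares near the background. Without overlap between PHL + CMS and Veh, 2 members were higher (3.70%, against 8.77% of all genes) and 11 lower (20.4%, against 8.78%), 8 of the latter among the 19 pump genes (42.1%), and 39 of the 54 members were below 0. Those lower at an unadjusted p under 0.05 were Atp6v1f (-0.31 ± 0.06 (SE)), Atp6v1g1 (-0.29 ± 0.07 (SE)), Atp6v0b (-0.20 ± 0.07 (SE)) and Neu1 (-0.25 ± 0.10 (SE)), with adjusted p-values of 0.235, 0.246, 0.36 and 0.419 in limma. None of these 4 overlapped between PHL + CMS and Veh. Those higher were Npc1 (0.44 ± 0.17 (SE), adjusted p = 0.405), whose replicate 3 of Veh lay above 1 PHL + CMS library, and Atp6v0a2, the a subunit of the Golgi and endosomes, at 6.30, 6.09 and 6.96 FPKM in Veh, 7.63, 7.98 and 8.12 in Veh + CMS and 7.22, 7.999 and 7.51 in PHL + CMS (0.23 ± 0.09 (SE), adjusted p = 0.426, limma). Other members with a small p were Atp6v1c2 (-0.48 ± 0.25 (SE), 26 to 50 reads a library) and Atp6v1c1 (-0.23 ± 0.13 (SE)), Lamp1 (0.24 ± 0.11 (SE)), Scarb2 (0.19 ± 0.10 (SE)), Grn, which encodes progranulin (0.15 ± 0.08 (SE)), Lipa (-0.14 ± 0.08 (SE)), Laptm4b (-0.14 ± 0.09 (SE)) and the tetraspanin Cd63 (-0.15 ± 0.10 (SE)), each at an unadjusted p of 0.0685 or more. Grn was 22.5, 23.4 and 21.5 FPKM in Veh, 25.8, 24.5 and 26.9 in Veh + CMS and 27.4, 24.8 and 23.1 in PHL + CMS. Laptm4b was 25.4, 26.98 and 27.1 FPKM in Veh, 25.3, 27.7 and 24.5 in Veh + CMS and 21.8, 24.6 and 25.7 in PHL + CMS. Cd63 was 77.8, 79.5 and 84.5 FPKM in Veh, 77.4, 97.5 and 89.8 in Veh + CMS and 68.6, 81.2 and 68.1 in PHL + CMS, and these last 3 overlapped between PHL + CMS and Veh. Of the marker lists, all 15 oligodendrocyte markers were above 0 in PHL + CMS against Veh (median 0.58). Excitatory neuron markers were above 0 in 6 of 9 (median 0.10). Below 0 were 10 of 14 microglial (median -0.14) and 9 of 10 striatal markers (median -0.44). None was called, and their part was not tested.

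For 4 pairs of isoforms of a pump subunit, the share of 1 isoform in the summed FPKM of the pair was taken in each library. Of the a subunit, Atp6v0a4 and Tcirg1, the a3 isoform (mean 3.44 FPKM in Veh, 4.03 in Veh + CMS and 3.32 in PHL + CMS), were left out of the pair. Atp6v0a2 made up 4.87, 4.54 and 5.61% of Atp6v0a1 and Atp6v0a2 together in the Veh libraries, 6.44, 8.16 and 6.39% in the Veh + CMS libraries and 5.06, 5.82 and 5.37% in the PHL + CMS libraries. Every Veh + CMS library was above all others. Atp6v0e1, the widely expressed e subunit, made up 5.27 ± 0.37% of Atp6v0e1 and Atp6v0e2 in Veh, 6.74 ± 1.03% in Veh + CMS and 4.96 ± 0.90% in PHL + CMS (SD, n = 3), with no overlap between Veh and Veh + CMS. Atp6v1g1 made up 44.99, 49.6 and 52.1% of Atp6v1g1 and Atp6v1g2 in Veh, 51.9, 53.4 and 54.1% in Veh + CMS and 47.1, 47.5 and 46.3% in PHL + CMS. The Veh and Veh + CMS libraries overlapped there, and the PHL + CMS libraries were below those of Veh + CMS. Atp6v1c2 stayed between 0.897 and 2.22% of Atp6v1c1 and Atp6v1c2 with all groups overlapping. In the first 3 pairs the partner is the isoform known for its high level in neurons, and all 9 markers of excitatory neurons had log2 differences below 0 in Veh + CMS against Veh, none of them called, but their part in these shares was not tested. Of the remaining low pump genes, Atp6v0a4, a kidney isoform, was at 1.77 to 3.36 FPKM. Atp6v1fnb, whose symbol names a neighbour of Atp6v1f and which is not known as a pump subunit, had 3 to 17 reads a library and a log2 difference of 0.91 ± 0.49 (SE) between Veh + CMS and Veh.

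**Figure D5:**
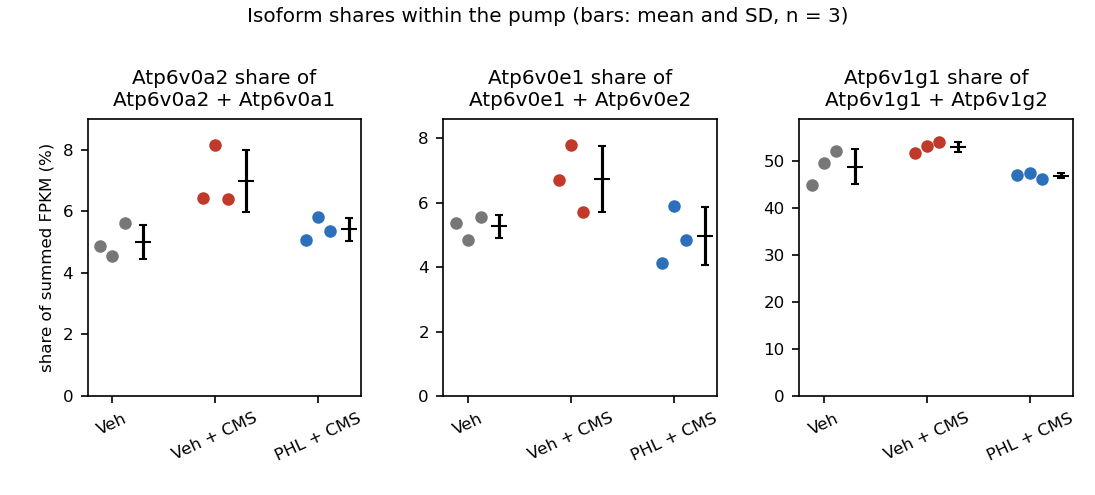
Share of 1 isoform in the summed FPKM of an isoform pair, in percent, for 3 subunits of the pump, with axes that start at 0, where points are libraries and bars the mean and SD of 3. The Veh + CMS libraries lie at 6.39 to 8.16% for Atp6v0a2, above the Veh and PHL + CMS libraries, and overlap at least 1 other group for Atp6v0e1 and Atp6v1g1.

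Other genes of the pathway, from lists written by hand, gave the frame. Among 24 tested genes for other lysosomal enzymes 16 were above 0 in Veh + CMS against Veh (median 0.09) and none was called. Among 22 other lysosomal membrane and trafficking genes 15 were above 0 (median 0.12) and 1 was called, Abca2, a lipid transporter of the lysosome that is abundant in oligodendrocytes, at 34.8, 33.0 and 38.5 FPKM in Veh and 65.3, 76.2 and 73.9 in Veh + CMS (log2 difference 1.02 ± 0.17 SE, adjusted p = 0.0263, limma). Among 13 genes for accessory and assembly factors of the pump 11 were below 0 (median -0.20) and none was called, Atp6ap2, the subunit also called the prorenin receptor, being nearest at -0.37 ± 0.09 (SE, adjusted p = 0.0502, limma). The last list held 14 tested genes of the TFEB family, Ragulator, the scaffold that holds mTORC1 at the lysosome, and partners such as Mtor. In Veh + CMS against Veh 7 of them were above 0 and 7 below (median 0.02). Tfeb was higher at 6.396, 4.57 and 5.73 FPKM in Veh and 9.22, 13.0 and 11.05 in Veh + CMS (log2 difference 0.98 ± 0.21 SE, adjusted p = 0.0404, limma). In the same list Lamtor5, a Ragulator subunit, was lower (-0.32 ± 0.06 SE, adjusted p = 0.0359, limma). In PHL + CMS against Veh + CMS none of the 4 lists had a called gene, and their medians were -0.07, -0.13, 0.17 and -0.02 in the order above.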

How the data were processed

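The authors deposited FPKM for 34463 genes in 9 libraries of mPFC RNA. The submitters' processing notes name HISAT2 and Rnor_6.0. Not given in the sources used here are the counting tool, versions, annotation release, strand setting and the treatment of reads that match several copies. FPKM multiplied by gene length were whole multiples of 1 step in each library, within 1e-06, which gave the reads. The deposited scaling lay within 0.266% of the median of ratios and was kept.

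The 16159 genes whose FPKM averaged 0.5 or more entered 1 fit of log2(FPKM + 0.1), made with limma 3.58.1 (R 4.3.3) over all 9 libraries, with moderation that follows the mean (9.04 residual degrees of freedom with the prior). Log2 fold changes were thus computed here from the deposited FPKM. Tests were two-sided, with Benjamini-Hochberg adjustment over all genes tested and a threshold of 0.05. The script was tested on simulated data. Groups and replicates came from the labels, and no column belonged to other samples (0 columns). The members and lists were chosen with earlier results of these data known. Of 84 listed pathway symbols 76 were in the table, and of 77 marker symbols 73. Named in each comparison were the called members, the 6 pump genes and 8 other members with the smallest p where fewer of a class passed, the most abundant pump gene and hydrolase, Lamp1 and Lamp2, and called pathway genes.

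Alternatives were another pseudocount (1, 0.01), no filter or a minimum mean FPKM of 1, quantile normalization, median-of-ratios scaling, only 2 groups, other moderation, library weights, a replicate block, voom on the recovered reads and each library left out. For the pump and hydrolase means they were other gene choices, of which the pump without Atp6v1fnb was chosen after seeing the data.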

Additional observations from a re-analysis of the deposited data

How the results depend on the processing

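The number of members called in Veh + CMS against Veh, 10 as reported, was 3 with no filter, 6 with quantile normalization, 3 with only the 2 groups compared, 0 with moderation without trend and 0 with the replicate block, and it was 10 to 13 under the other alternatives with all libraries (voom on the recovered reads: 11). Median-of-ratios scaling, 1 of these, changed no library by more than 0.266%, so its count says little about normalization. Genes of the whole table that passed numbered 613 as reported, 301 with no filter, 448 with quantile normalization and 462 with only the 2 groups. They numbered 2 without trend, 0 with the block and 784 with voom. Leaving out 1 library gave 0 to 11 members. The fits with fewer libraries or a block have fewer degrees of freedom, and the cause was otherwise not tested. In PHL + CMS against Veh + CMS the count was 0 throughout, except 3 without PHL + CMS replicate 2 (leave-one-out range 0 to 3), and in PHL + CMS against Veh it was 0 in every fit. The difference of pump and hydrolase means kept its size within the spread between replicates under the alternatives run for it. Its leave-one-out ranges were -0.32 to -0.21, 0.19 to 0.33 and -0.05 to 0.06 for the 3 comparisons. The 14 pump genes of 50 FPKM or more were not 1 of these alternatives. They gave -0.25, -0.61 and -0.32 in the Veh + CMS libraries, further below 0 than the -0.16, -0.40 and -0.25 of all 19. No named member changed sign while called. Of the adjusted calls, Npc1 was lost in 7 of 21 alternatives and Atp6v0c, Atp6v1e1 and Atp6v1f in 13 each. Replicate numbers did not pair the libraries: none of 9 same-numbered pairs correlated above 0.1 (-0.10 to 0.05). Under the replicate block 22 members had an unadjusted p under 0.05 in the first comparison, against 24 without it, and the share of all genes was not taken under the block. Quantile normalization moved the pump median from -0.27 to -0.18. Precision is limited by 3 libraries a group and, for scarce genes such as Atp6v1c2 (26 to 50 reads a library), by the counts.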
